A study of Mus musculus with 6 samples.

Results

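A set of 10 transcription regulators that act between zygotic genome activation and the first lineage decisions of the mouse embryo was examined by name in the expression table of two-cell embryos. They were Pou5f1, Sox2, Klf4, Klf5, Klf17, Nr5a2, Tfap2c, Tead4, Yap1 and Rarg, and all 10 were found among the 53023 genes of the table. The 3 groups of ICR embryos were non-injected embryos and embryos injected into the cytoplasm with mRNA for PIASy-WT, a SUMO E3 ligase encoded by Pias4, or for PIASy-Mut, a mutant of the ligase function with the C335F change. The mRNA was given at 100 ng/µl from 1.5 to 3 h after insemination (hpi), zygotes showing fluorescence were picked at 9 hpi, and all groups were cultured in KSOM medium and collected at 28 hpi. There were 2 libraries per group, each from 1 pool of 5 embryos. The control embryos were not injected, so PIASy-Mut is the group that shares injection with PIASy-WT. The comparison therefore asked how the levels of these regulators at the two-cell stage differed when PIASy with or without ligase activity was supplied from the zygote on.

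In the mouse, the embryonic genome is activated strongly at the two-cell stage, while RNA and protein left by the oocyte are cleared. Orphan nuclear receptors of the NR5A subfamily and KLF and AP-2 proteins bind regulatory DNA around this time, and YAP1 with TEAD4 and the factors Pou5f1 and Sox2 later separate trophectoderm from inner cell mass. Of the 10 members, Pou5f1, Klf17, Tfap2c and Yap1 were placed with RNAs supplied by the oocyte, and Nr5a2, Klf5, Klf4, Tead4 and Sox2 with RNAs made mainly by the embryo. Rarg was left unassigned. This division came from general knowledge of the mouse embryo, since no oocyte or zygote library was analysed here, and a maternally supplied gene can also be transcribed by the embryo. It was made with earlier results of these data known.

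The levels are FPKM, fragments per kilobase of gene scaled to the total of the library, and the libraries held 871663 to 1363928 fragments on genes. The size of 1 fragment could be recovered for every library, so fragment numbers are given beside low levels, and 3 fragments were taken as the limit of detection. All 10 members passed the filter of at least 1 FPKM in at least 2 libraries, which left 16100 genes in the test. Sox2 was the 1 member that passed only with the help of its PIASy-WT libraries, so a higher level there was partly a condition of its being tested. Pias4 itself was at 2.98 and 3.59 FPKM without injection, at 862 and 611 FPKM in the PIASy-Mut and at 610 and 579 FPKM in the PIASy-WT libraries. The 9 two-cell genes listed as stage markers were all detected in every library. Their summed level was 2905 and 2672 CPM (fragments scaled to library total, regardless of length) in non-injection, 2650 and 3197 CPM in PIASy-Mut, and 1913 and 1447 CPM in PIASy-WT. The 9 oocyte transcripts listed summed to 4412 and 4003 CPM, 4064 and 6389 CPM, and 8082 and 7859 CPM in the same groups, and none was at 0 in any library. Their part in the differences of the members was not tested. The most abundant gene of each list in non-injection, Tcstv3 and Oosp1, differed by −1.14 and 0.30 on the log2 scale between PIASy-WT and non-injection (adjusted P=0.0731 and 0.569 by limma). Against PIASy-Mut, Tcstv3 was called lower with a log2 difference of −1.39 (adjusted P=0.0499), a call that held in 3 of 11 alternative settings. In the oocyte list 7 genes had positive and 2 had negative log2 differences from non-injection. Bmp15, named after its values were seen, held 2011 and 1594 fragments in non-injection and 5204 and 5199 in PIASy-WT. Much of the higher sum thus rested on this gene (log2 difference 1.55, adjusted P=0.0737 by limma). Zp3, a zona pellucida gene, went the other way, by −1.57 from non-injection and −1.67 from PIASy-Mut (adjusted P=0.0292 and 0.0240 by limma). Its calls held in 9 and 10 of 11 alternative settings. The 12 cumulus cell genes listed summed to only 26.4 to 34.7 CPM, with 5 to 8 of them at 0, although Amhr2 of that list was called lower against non-injection (adjusted P=0.0427 by limma). Amhr2 was not called against PIASy-Mut (adjusted P=0.0687), and its call held in 8 of 11 alternative settings. Its PIASy-WT levels were 3 and 4 fragments. These are whole-embryo libraries, so fewer cells expressing a gene and less RNA per cell cannot be told apart.

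Among the 10 members Nr5a2 had the largest difference in log2(FPKM + 1) between PIASy-WT and non-injection, although the ratio of fragments was larger for the sparse Tead4, and the members went in different directions. Both PIASy-WT libraries were below the other 4 libraries for 5 of the 10 members (Klf17, Nr5a2, Tfap2c, Klf5 and Tead4) and above them for 2 (Yap1 and Pou5f1). For Klf4, Sox2 and Rarg the groups overlapped. Over all genes tested, both PIASy-WT libraries lay below the other 4 for 24.4% and above for 19.9%. A gene was called when limma gave it an adjusted P not above 0.05, and 0 of the 10 members were called in any of the 3 comparisons. The background of calls was 5.76% of genes lower and 1.03% higher in PIASy-WT against non-injection, 6.01% lower and 0.82% higher against PIASy-Mut, and 0.00621% in either direction between PIASy-Mut and non-injection, where the single called gene was Pias4. At an unadjusted P under 0.05 in limma, PIASy-WT had 4 members under the non-injection level (Nr5a2, Tfap2c, Klf5 and Tead4) against a background of 17.6%, and 0 were higher against 10.6%. Against PIASy-Mut, 3 members were lower (Nr5a2, Tfap2c and Klf17; background 18.2%) and Sox2, which passed the filter only with its PIASy-WT libraries, was higher (background 9.46%). Between PIASy-Mut and non-injection 0 members reached an unadjusted P under 0.05, where the background in either direction was 4.46%. The study's methods count its replicates as biological, while the labels do not say whether the pools of one group came from separate matings or days, so these P-values measure the spread between these pools.

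**Figure D1:**
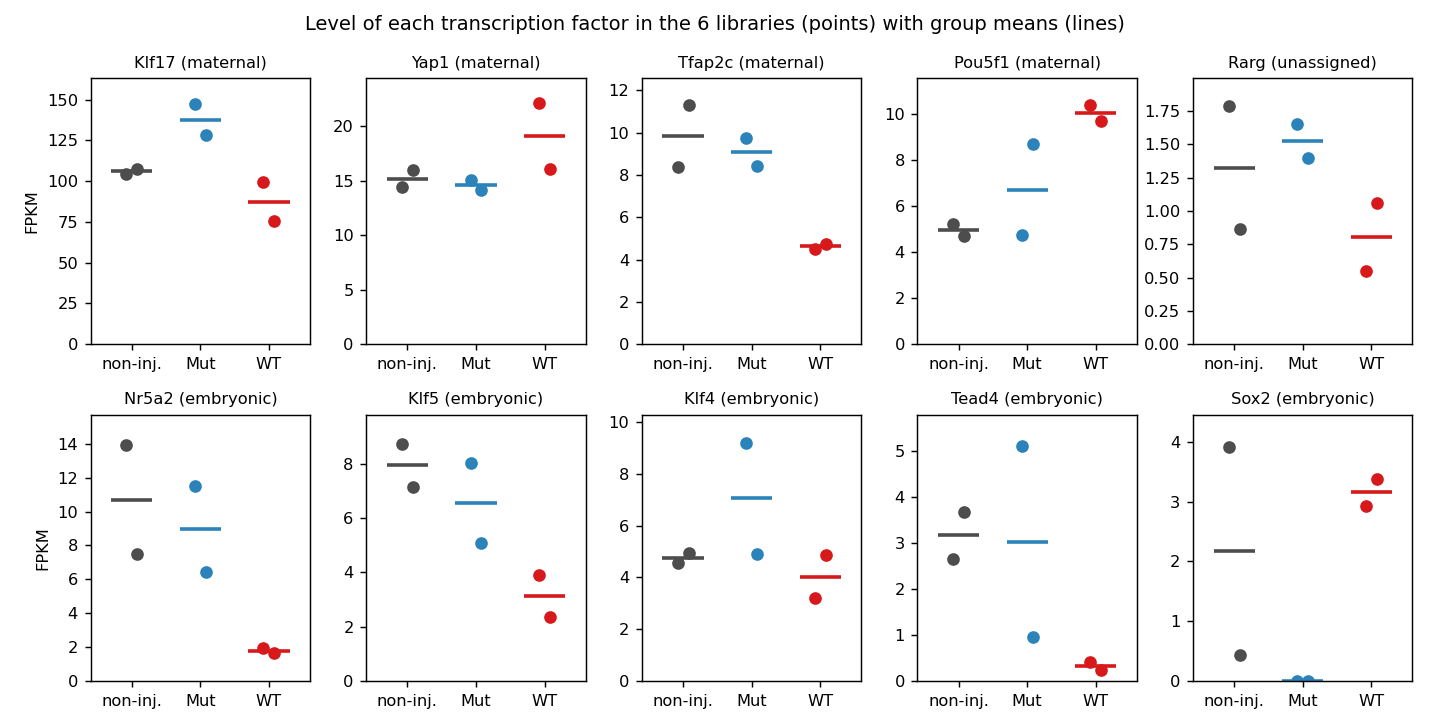
Each panel gives 1 of the 10 genes, with FPKM on a y axis that starts at 0 and the 3 groups on the x axis (non-inj., non-injection; Mut, PIASy-Mut; WT, PIASy-WT). Points are the 2 libraries of a group and lines are their means. Both PIASy-WT points lie under all others for Nr5a2, Klf5, Tead4, Tfap2c and Klf17, and over all others for Pou5f1 and Yap1.

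Nr5a2 encodes an orphan nuclear receptor that binds DNA as a monomer and opens chromatin at genome activation. Its level was 13.9 and 7.50 FPKM in non-injection, 11.5 and 6.42 FPKM in PIASy-Mut and 1.92 and 1.62 FPKM in PIASy-WT. The 4 libraries without PIASy-WT spread over a wide range, yet the lowest of them stood well over both PIASy-WT libraries. These levels rested on 112, 50, 70 and 33 fragments against 15 and 11 in PIASy-WT. The pooled share of fragments was 6.18 times higher in non-injection than in PIASy-WT, with an exact 95% interval of 4.07 to 9.75 that covers counting error only. On the log2(FPKM + 1) scale the difference from non-injection was −2.02 ± 0.44 (SE, n = 2 libraries per group), with a 95% interval of −3.10 to −0.95 and an adjusted P of 0.0510 by limma. Nr5a2 was thus just outside the threshold, at place 1131 among the genes ordered by P. It passed in 7 of 17 alternative settings, in which its adjusted P ran from 0.00449 to 0.280. Against PIASy-Mut the difference was −1.80 ± 0.44 with an adjusted P of 0.0642, and it passed in 2 of 17 settings. Between PIASy-Mut and non-injection it was −0.23 ± 0.44 (adjusted P=1 by limma). In rank among all tested genes, Nr5a2 stood at percentile 72.1 without injection, 67.6 with PIASy-Mut and 32.8 with PIASy-WT.

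Klf5, a zinc finger activator needed for both trophectoderm and inner cell mass, had the next lowest adjusted P against non-injection among the genes placed with embryonic transcription. It was at 8.74 and 7.14 FPKM in non-injection, 8.01 and 5.07 FPKM in PIASy-Mut and 3.92 and 2.34 FPKM in PIASy-WT. The PIASy-WT libraries were again the lowest, with PIASy-Mut 2 next above them. The log2 difference of PIASy-WT was −1.14 ± 0.39 from non-injection (adjusted P=0.125 by limma) and −0.87 ± 0.39 from PIASy-Mut (adjusted P=0.212). Against non-injection it passed in 1 of 17 settings, the fit of recovered fragments with voom, with an adjusted P of 0.0393. Klf4, a related activator best known from reprogramming, was not lowest in both PIASy-WT libraries, and its contrast with Klf5 was not tested. It was at 4.57 and 4.93 FPKM in non-injection, 9.21 and 4.89 FPKM in PIASy-Mut and 3.22 and 4.85 FPKM in PIASy-WT, so the groups overlapped and PIASy-Mut 1 was the highest library. Its log2 difference from non-injection was −0.21, with a 95% interval of −1.21 to 0.79 that leaves room for a change of either sign.

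Klf17, an oocyte and early embryo KLF protein, was the most abundant member by far. It was at 104 and 108 FPKM in non-injection, 147 and 128 FPKM in PIASy-Mut and 99.7 and 75.4 FPKM in PIASy-WT. Alone it made up 62.2% to 71.9% of the summed FPKM of the 10 members in each library, and it stood at percentile 96.2, 96.9 and 96.1 of all tested genes in the 3 groups. The gap between the lowest non-injection and the highest PIASy-WT library was small, and the log2 difference was −0.29 ± 0.25 (adjusted P=0.484 by limma). Against PIASy-Mut, where both libraries were above non-injection, it was −0.66 ± 0.25 (adjusted P=0.151). In FPKM, Klf17 was 15.5 to 31.0 times Klf4 over the 6 libraries.

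All 3 KLF proteins bind GC-rich and CACC elements through 3 zinc fingers near the end of the protein. Part of this shared region is shown because related genes are where reads of one KLF gene could be taken for another. The coding bases of the third finger were taken from GENCODE M21 transcripts, with capitals on the codons of the 2 cysteines and 2 histidines that hold the zinc ion.
Klf4: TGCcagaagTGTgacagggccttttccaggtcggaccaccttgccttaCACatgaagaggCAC
Klf5: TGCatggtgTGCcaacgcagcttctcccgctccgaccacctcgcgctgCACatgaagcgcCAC
Klf17: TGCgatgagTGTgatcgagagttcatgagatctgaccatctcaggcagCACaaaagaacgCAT
Over these 63 bases Klf4 and Klf5 were identical at 66.7% of positions, Klf4 and Klf17 at 55.6% and Klf5 and Klf17 at 54.0%. Over all 3 fingers (243 bases) the identities were 68.3%, 62.1% and 56.4%. The 3 genes shared no 50-base stretch with each other. Klf17 shared 9.32% of its 50-base stretches with the gene model Gm20690, and Pou5f1 10.1% with Gm19553 and Gm5712, while the others shared at most 1.35%. Since the authors counted uniquely mapped reads, reads from a stretch that lies at several places of the genome could be lost. Gm19553 overlaps with Pou5f1 on the other strand over 317 exon bases, so stretches shared with it can lie at the same place and need not be lost. Which shared stretches lie at separate places was not tested, and the levels of Klf17 and Pou5f1 carry that uncertainty.

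Tead4 and Yap1 encode a DNA-binding factor and its co-activator, which act as a pair in the trophectoderm lineage. Tead4 was at 2.65 and 3.69 FPKM in non-injection, 5.12 and 0.957 FPKM in PIASy-Mut and 0.419 and 0.242 FPKM in PIASy-WT. The PIASy-WT values were 2 fragments and 1 fragment, under the limit of 3, and the low PIASy-Mut library had 3 fragments, exactly at it. The pooled share of fragments was 9.26 times higher in non-injection than in PIASy-WT, with an exact interval of 2.86 to 47.6. The log2 difference was −1.64 ± 0.61 from non-injection (adjusted P=0.146 by limma) and −1.38 ± 0.61 from PIASy-Mut (adjusted P=0.204). Without PIASy-Mut 2, the library with the low value, Tead4 was called in both comparisons, with adjusted P-values of 0.0495 and 0.0396. The second then sets PIASy-WT against the single library PIASy-Mut 1, which had the highest Tead4 level and was assumed to vary like the other groups. Yap1 was at 14.4 and 15.95 FPKM in non-injection, 15.1 and 14.1 FPKM in PIASy-Mut and 22.2 and 16.1 FPKM in PIASy-WT. Its lower PIASy-WT library was barely over the highest of the others, and the log2 difference from non-injection was 0.30 ± 0.28 (adjusted P=0.525). The FPKM ratio of Yap1 to Tead4 was 5.44 and 4.33 without injection, 2.95 and 14.8 with PIASy-Mut and 52.9 and 66.5 with PIASy-WT. The PIASy-WT ratios rest on the 3 fragments of Tead4 in those libraries.

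Pou5f1, which encodes the octamer-binding factor OCT4 of the pluripotent lineage, was one of the members that were higher in PIASy-WT. It was at 5.22 and 4.72 FPKM in non-injection, 4.74 and 8.68 FPKM in PIASy-Mut and 10.4 and 9.68 FPKM in PIASy-WT. PIASy-Mut 2 fell near the PIASy-WT libraries, and PIASy-Mut 1 among the non-injection libraries. The log2 difference was 0.89 ± 0.37 from non-injection (adjusted P=0.179 by limma) and 0.57 ± 0.37 from PIASy-Mut (adjusted P=0.372), on 11 to 31 fragments per library. PIASy-Mut 2 was also the PIASy-Mut library with the higher sum of oocyte transcripts and the lower Nr5a2 and Tead4. Sox2, the HMG-box partner of OCT4, was at 3.92 and 0.430 FPKM in non-injection, 2.93 and 3.38 FPKM in PIASy-WT and 0 in both PIASy-Mut libraries. These were 11, 1, 8 and 8 fragments against 0 and 0. A count of 0 allows up to 1.41 and 1.67 FPKM in the PIASy-Mut libraries, and the PIASy-WT mean was 2.05 times the mean of these limits. That ratio leaves out the counting error of the 8 and 8 fragments in PIASy-WT. The adjusted P of PIASy-WT against PIASy-Mut was 0.101 by limma, so Sox2 was not called. Since it was tested only because of its PIASy-WT libraries, the direction is given as a description. Sox2 lies in the long noncoding gene Sox2ot, on the same strand but with no exon base in common, and Sox2ot had 1 to 3 fragments per library.

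Tfap2c, an AP-2 factor of the oocyte and later of trophectoderm, was lower in PIASy-WT although it was placed with maternal supply. It was at 8.37 and 11.3 FPKM in non-injection, 9.74 and 8.42 FPKM in PIASy-Mut and 4.51 and 4.73 FPKM in PIASy-WT. The 2 PIASy-WT libraries were close together and the lowest of the rest lay well over them. The log2 difference was −0.93 ± 0.31 from non-injection (adjusted P=0.120 by limma) and −0.84 ± 0.31 from PIASy-Mut (adjusted P=0.150), and it passed in 0 of 17 settings in either comparison. Rarg, the retinoic acid receptor gamma, was the least abundant member of non-injected embryos. It was at 1.78 and 0.861 FPKM in non-injection, 1.65 and 1.40 FPKM in PIASy-Mut and 0.551 and 1.06 FPKM in PIASy-WT, on 3 to 10 fragments. These levels overlapped between groups, and a change in Rarg was not detectable at this depth (log2 difference −0.35, 95% interval −1.39 to 0.69).

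**Figure D2:**
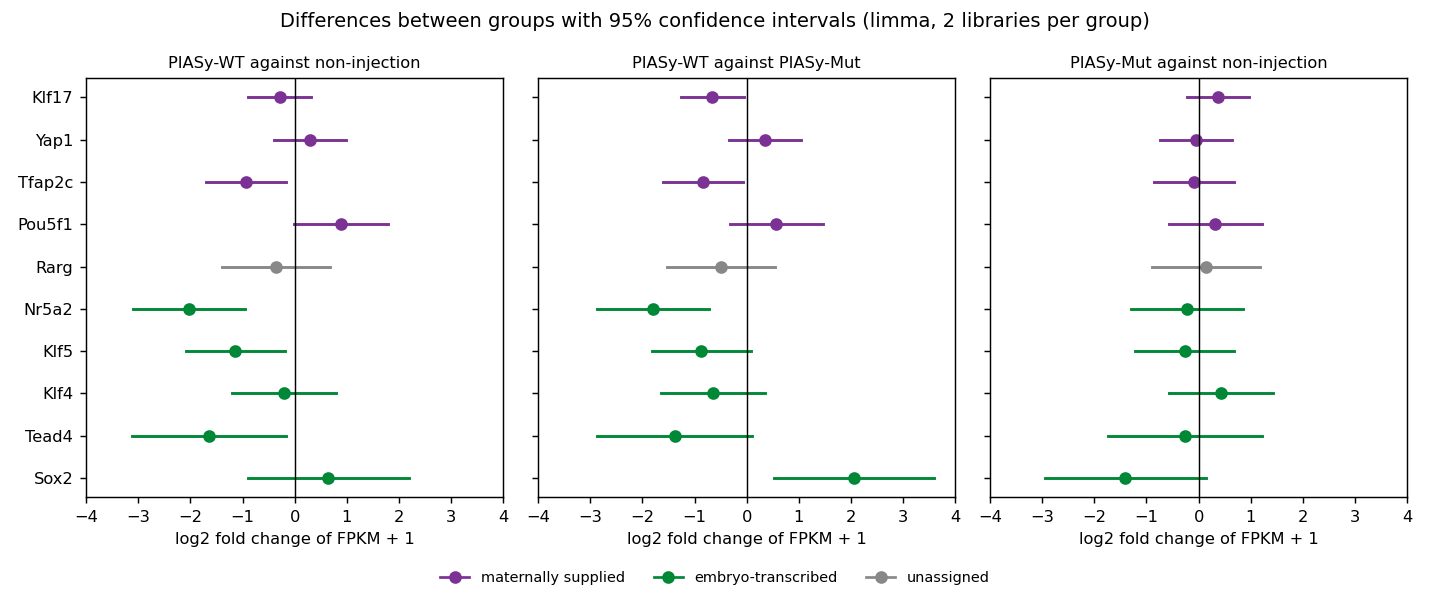
Points are log2 differences of FPKM + 1 between groups for each gene, and lines are their 95% confidence intervals from limma, in 3 panels for the 3 comparisons. Colours separate maternally supplied from embryo-transcribed genes. In the left panel the intervals of Nr5a2, Klf5, Tead4 and Tfap2c lie under 0, and the most negative point is Nr5a2 at −2.02.

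By origin, the medians differed. The members and their division were chosen with earlier results of these data known, so the medians are given as a description. The 5 embryo-transcribed members had a median log2 difference of −1.14 in PIASy-WT against non-injection, with 4 negative and 1 positive (Sox2), and the 4 maternally supplied members had a median of 0.01, with 2 negative and 2 positive. Sox2 entered only with its PIASy-WT libraries, and without it the embryonic median was −1.39 over 4 members. The median of all genes tested was 0.01. Against PIASy-Mut the medians were −0.87 and −0.15, beside −0.03 for all genes. The median of the embryo-transcribed members stays at −0.87 with Sox2 of PIASy-Mut set to the detection limit and was −1.12 without Sox2. Between PIASy-Mut and non-injection they were −0.26 and 0.13, beside 0.04 for all genes. Summed, the embryo-transcribed members were at 33.8 and 23.7 FPKM in non-injection, 33.8 and 17.3 FPKM in PIASy-Mut and 12.4 FPKM in both PIASy-WT libraries. The maternally supplied members summed to 132 and 139.6 FPKM in non-injection, 177 and 159 FPKM in PIASy-Mut and 137 and 106 FPKM in PIASy-WT. Without Klf17 they summed to 28.0 and 32.0, 29.6 and 31.2, and 37.1 and 30.5 FPKM. The sum of the embryonic set was thus lowest in PIASy-WT, with the lower PIASy-Mut library between PIASy-WT and non-injection, while the full maternal sum was highest in PIASy-Mut and overlapped between non-injection and PIASy-WT. Without Klf17 the maternal sum of PIASy-WT overlapped with both other groups. Nr5a2 and Klf5 carried most of the embryonic sum in non-injected embryos.

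The order of the members by level changed accordingly. In non-injection it ran Klf17, Yap1, Nr5a2, Tfap2c, Klf5, Pou5f1, Klf4, Tead4, Sox2 and Rarg. Within it Nr5a2, Tfap2c and Klf5 overlapped in turn, as did Tead4, Sox2 and Rarg, and Pou5f1 overlapped with Klf4. Nr5a2 stood clear of Yap1, and Klf5 of Pou5f1. PIASy-Mut had Tfap2c, Nr5a2, Klf4, Pou5f1, Klf5 and Tead4 after Klf17 and Yap1, each overlapping with the next, and Sox2 last at 0. In PIASy-WT the order was Klf17, Yap1, Pou5f1, Tfap2c, Klf4, Sox2, Klf5, Nr5a2, Rarg and Tead4. There Pou5f1 stood clear of both neighbours, the 4 genes from Tfap2c to Klf5 overlapped in turn, and Nr5a2 had dropped from the third to the eighth place. The ratio of Nr5a2 to Pou5f1 in FPKM was 2.67 and 1.59 without injection, 2.43 and 0.740 with PIASy-Mut and 0.184 and 0.168 with PIASy-WT.

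**Figure D3:**
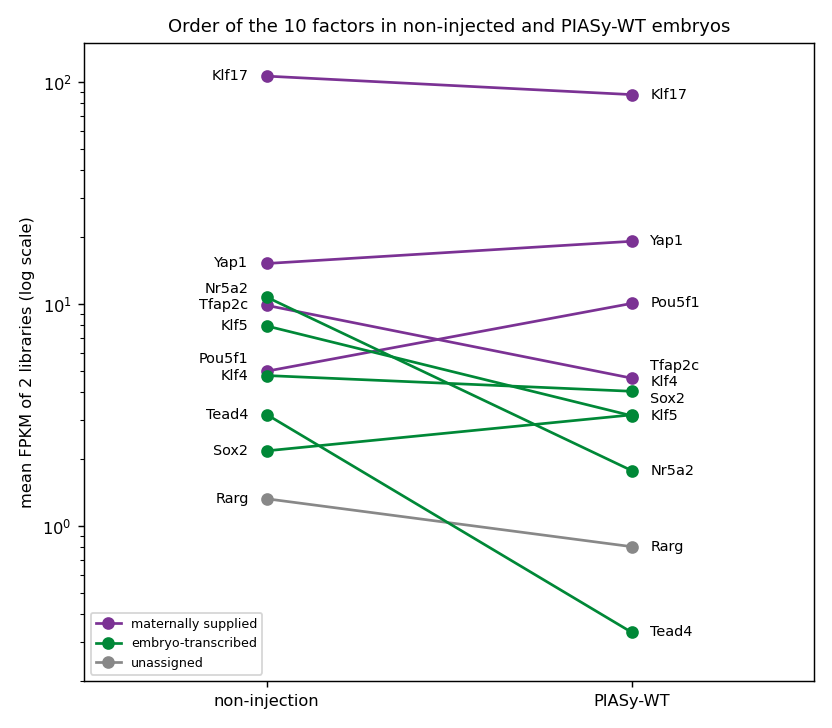
The mean FPKM of the 2 libraries is drawn on a log axis for each gene in non-injection (left) and PIASy-WT (right), joined by a line. Nr5a2 falls from 10.7 to 1.77 FPKM and Tead4 from 3.17 to 0.331 FPKM, while Pou5f1 crosses Nr5a2 upwards from 4.97 to 10.04 FPKM and Klf17 stays on top.

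The sequence before the start sites of Nr5a2 and Pou5f1, whose log2 differences from non-injection had opposite signs without a call, and of Klf17 is shown next. Windows of 250 bases upstream of the start were read from RefSeq on GRCm38.p6, and 7 of the 10 members had one (Klf5, Tfap2c and Tead4 had no entry). Nr5a2, Pou5f1 and Rarg each had a further window that lies within the gene and is not shown. Capitals mark, on either strand, the nuclear receptor half-site AGGTCA, the core of the NR5A element TCAAGG and the GC box GGGCGG bound by SP and KLF proteins. The 3 windows lie on chr1:136960449-136960698 (minus strand), chr17:35505782-35506017 (plus strand, shortened to the 236 bases before the gene of the deposited table) and chr4:117765667-117765916 (minus strand).
Nr5a2: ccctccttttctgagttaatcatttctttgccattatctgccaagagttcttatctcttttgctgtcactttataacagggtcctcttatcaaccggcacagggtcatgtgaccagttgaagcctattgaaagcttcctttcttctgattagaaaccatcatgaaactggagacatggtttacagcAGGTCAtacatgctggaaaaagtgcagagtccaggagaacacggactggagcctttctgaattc
Pou5f1: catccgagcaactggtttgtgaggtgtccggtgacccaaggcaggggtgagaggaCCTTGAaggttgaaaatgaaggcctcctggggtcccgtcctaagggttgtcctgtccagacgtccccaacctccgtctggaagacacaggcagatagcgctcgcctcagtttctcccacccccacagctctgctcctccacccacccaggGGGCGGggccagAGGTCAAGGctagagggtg
Klf17: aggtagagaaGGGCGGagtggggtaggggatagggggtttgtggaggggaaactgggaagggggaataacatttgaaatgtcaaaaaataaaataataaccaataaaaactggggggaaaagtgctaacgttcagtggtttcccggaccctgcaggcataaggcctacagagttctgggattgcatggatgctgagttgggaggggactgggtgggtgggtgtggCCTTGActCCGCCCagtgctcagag
Pou5f1 held 1 half-site that overlaps with 1 of its 2 NR5A cores and 1 GC box close before it. Nr5a2 held 1 half-site and no NR5A core or GC box, and Klf17 held 1 NR5A core and 2 GC boxes. The further windows within Nr5a2, Pou5f1 and Rarg held no half-site, NR5A core or GC box. Among 32851 RefSeq windows of 250 bases, 14.0% held the half-site, 12.5% the NR5A core and 32.7% the GC box. A match of letters is a description and does not show that a factor was bound there.

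Genes related to the members were read from lists of families and pathways. Of the genes tested on these lists, 12 passed the filter only with the help of their PIASy-WT libraries, so a count of higher genes is not free of the filter. Among 22 KLF and SP genes 14 were tested, and against non-injection 2 were called lower in PIASy-WT, with 0 higher. Over all genes tested, 5.76% were called lower and 1.03% higher. At an unadjusted P under 0.05 in limma, 5 of the list were lower and 0 higher, against 17.6% and 10.6% of all genes. Klf16, a GC-box binding KLF protein, was at 6.85 and 6.28 FPKM in non-injection, 6.52 and 5.58 FPKM in PIASy-Mut and 1.13 and 0.976 FPKM in PIASy-WT, a log2 difference of −1.88 ± 0.34 from non-injection (adjusted P=0.0359 by limma). It was also called against PIASy-Mut (adjusted P=0.0386). Its PIASy-WT levels were 4 and 3 fragments, the second exactly at the limit of 3. Sp1, a ubiquitous GC-box activator, was at 11.5 and 13.1, 10.9 and 10.6, and 4.17 and 1.99 FPKM in the same groups, a log2 difference of −1.76 ± 0.37 from non-injection (adjusted P=0.0468). Against PIASy-Mut Sp1 differed by −1.58 and was not called (adjusted P=0.0583). Sp3, the most abundant gene of the list in non-injection, was lower by 1.23 and was not called (adjusted P=0.0682). Not counting alternative settings that leave out a library, Klf16 kept its call in 9 of 11 against non-injection and 6 of 11 against PIASy-Mut, and Sp1 in 4 of 11.

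Of the pathways in which Tead4 and Yap1 act, 0 of 3 tested partner genes, 0 of 9 Hippo kinases and regulators and 0 of 3 YAP and TEAD target genes were called against non-injection in limma. At an unadjusted P under 0.05 there were 0, 3 (2 lower and 1 higher) and 1 (higher). Over all genes tested, 17.6% were lower and 10.6% higher at that threshold, and 5.76% and 1.03% were called. Wwtr1, which encodes the YAP1 paralogue TAZ, was at 7.21 and 5.18 FPKM in non-injection, 13.4 and 3.60 FPKM in PIASy-Mut and 2.53 and 0.546 FPKM in PIASy-WT (log2 difference −1.61, adjusted P=0.184). Its PIASy-WT levels were 16 and 3 fragments. Taok1, the most abundant of the Hippo genes in non-injection, differed by −0.21 (adjusted P=0.585). The 2 MST kinases moved apart in value. Stk3 was at 8.51 and 10.3 FPKM in non-injection and 25.5 FPKM in both PIASy-WT libraries, and Stk4 at 7.26 and 9.51 against 1.80 and 2.08 FPKM, with adjusted P-values of 0.0747 and 0.0845. The abundant Tgfb2 was at 229 and 227 FPKM in non-injection, 212 and 359 FPKM in PIASy-Mut and 531 and 515 FPKM in PIASy-WT (log2 difference 1.19, adjusted P=0.0695). The 2 MST kinases were named after their values were seen.

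Around Rarg, 1 of 7 retinoid receptor and corepressor genes was tested. It was Ncor1, with a log2 difference of 0.50 (adjusted P=0.293 by limma). Of the genes for retinoid metabolism and binding 6 of 11 were tested. Among them Cyp26a1 passed the filter on low values only through PIASy-WT and so had to be higher there, and no count of signs or median is drawn from the list. The only gene called against non-injection was this same Cyp26a1, a retinoic acid hydroxylase, with 6 and 16 fragments in PIASy-WT and 0 in the other 4 libraries (adjusted P=0.0480). The mean level of Cyp26a1 in PIASy-WT was 3.80 times the limit of 3 fragments per library for non-injection and 2.91 times that for PIASy-Mut. These ratios leave out the counting error of the 6 and 16 fragments. The call rested on few fragments and held in 1 of 9 alternative settings. Over all genes tested, 1.03% were called higher against non-injection. Aldh1a2, which makes retinoic acid, was at 6.15 and 5.86 FPKM in non-injection, 2.14 and 10.1 FPKM in PIASy-Mut and 17.0 and 18.8 FPKM in PIASy-WT (adjusted P=0.181). Rdh10, the most abundant gene of the list in non-injection, differed by 0.57 (adjusted P=0.256). Cyp26a1 and Aldh1a2 were named after their values were seen, since Cyp26a1 had too few fragments for the naming rule.

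Among other nuclear receptors 0 of 10 were called in limma (2 lower at an unadjusted P under 0.05), and Nr6a1, the most abundant of them in non-injection, was at 8.53 to 12.9 FPKM in all libraries. Against non-injection, 5.76% of all genes tested were called lower and 1.03% higher. At an unadjusted P under 0.05 these shares were 17.6% and 10.6%. Both tested AP-2 genes beside Tfap2c had positive values. Tfap2e was at 9.85 and 12.7 FPKM in non-injection, 14.9 and 17.1 FPKM in PIASy-Mut and 22.8 and 23.8 FPKM in PIASy-WT, opposite in sign to Tfap2c, with an adjusted P of 0.0812. Of 7 tested POU and SOX genes 0 were called against non-injection and 1 was lower against PIASy-Mut, where 6.01% of all genes tested were called lower. At an unadjusted P under 0.05 there were 1 lower and 1 higher gene against non-injection, and the higher one, Sox11, passed the filter only through PIASy-WT and so had to be higher there. The gene called against PIASy-Mut was Sox15, at 17.9 and 33.9 FPKM in non-injection, 29.3 and 24.0 FPKM in PIASy-Mut and 7.89 and 5.05 FPKM in PIASy-WT (adjusted P=0.0518 and 0.0470). Its call against PIASy-Mut held in 4 of 11 alternative settings, with adjusted P-values up to 0.117. In the pluripotency network 0 of 10 were called (1 lower and 1 higher at an unadjusted P under 0.05), and Tcl1, its most abundant gene in non-injection, differed by 0.62 (adjusted P=0.275). Among 8 tested blastocyst lineage factors 1 was called higher and 0 lower. At an unadjusted P under 0.05, 4 were higher and 0 lower, and Gata2 of these passed the filter only through PIASy-WT. Id2, a helix-loop-helix inhibitor of the early trophectoderm, was at 39.1 and 25.0 FPKM in non-injection, 26.6 and 33.9 FPKM in PIASy-Mut and 110.5 and 106 FPKM in PIASy-WT. The log2 difference was 1.76 ± 0.30 from non-injection (adjusted P=0.0332) and 1.81 ± 0.30 from PIASy-Mut (adjusted P=0.0303). The call of Id2 held in 9 of 11 alternative settings against non-injection and 8 of 11 against PIASy-Mut.

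**Figure D4:**
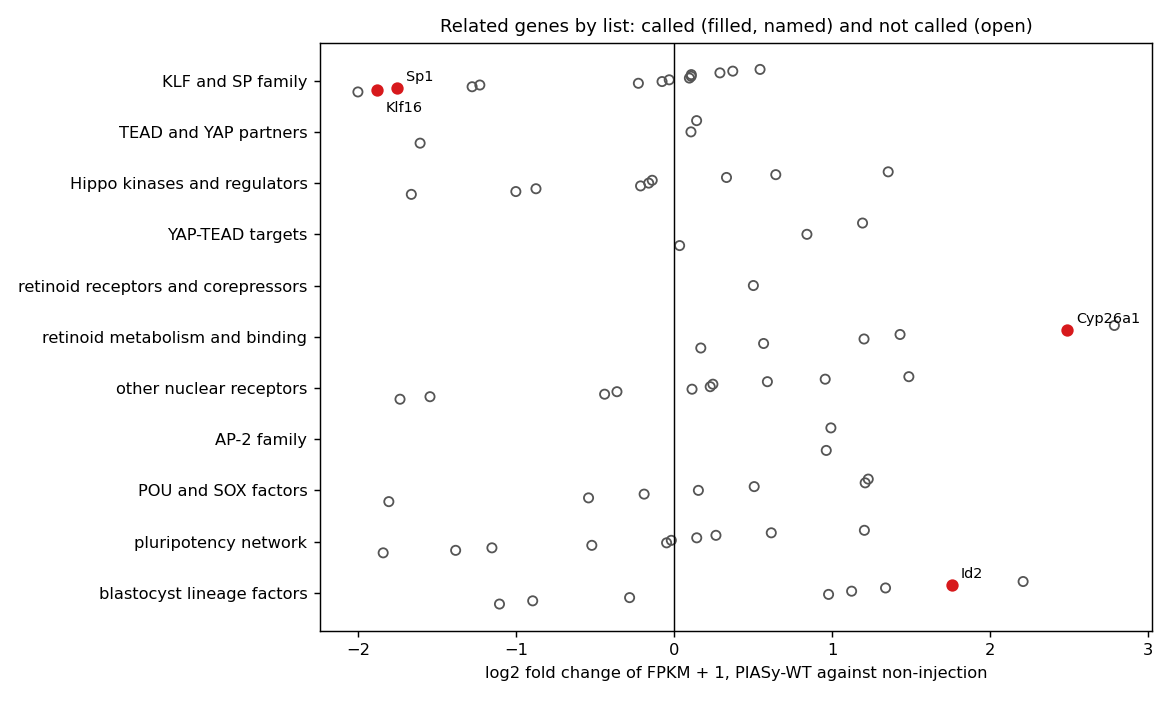
Each point is a tested gene of a list, placed by its log2 difference of FPKM + 1 in PIASy-WT against non-injection. Filled and named points were called by their adjusted P in limma, and open points were not. Klf16 and Sp1 lie at −1.88 and −1.76, and Id2 at 1.76, while the place of Cyp26a1, at 0 in non-injection, depends on the pseudocount.

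Genes whose pattern over the 6 libraries was most like that of a member were sought by the Euclidean distance between log2(FPKM + 1) values centred on each gene's mean. The naming rule asks for them only for called members, so those of Pou5f1 and Nr5a2 were chosen after the values were seen and are given as a description. Nearest to Pou5f1 was Nlrp14, an oocyte gene of the NLRP family, at a distance of 0.0985, followed by Wasf2 and Bbof1. Nlrp14 was at 106 and 94.8 FPKM in non-injection, 100.0 and 176 FPKM in PIASy-Mut and 196 and 188 FPKM in PIASy-WT, with the same high value in PIASy-Mut 2 as Pou5f1. Nearest to Nr5a2 were Gm5049, Ift20 and Nbn, at 0.384 to 0.401, which is farther than for Pou5f1. Ift20 was at 192 and 140 FPKM in non-injection, 152 and 120 FPKM in PIASy-Mut and 39.6 and 37.7 FPKM in PIASy-WT.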

How the data were processed

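RNA-seq of two-cell embryos was read from 1 table that the authors deposited, with an FPKM value for each of 53023 genes in 6 libraries, 2 per group. The authors removed adapters and low-quality bases with Trim Galore, aligned reads to mm10 with STAR, used featureCounts to count reads with a single alignment, and turned the counts into FPKM. The annotation release and the strand setting of the counting are not given in the sources used here, so genes with an antisense or overlapping partner (Pou5f1 with Gm19553 and Yap1 with Gm20416, both at 0 or 1 fragment in every library) are uncertain in that respect. Libraries were amplified before and after fragmentation without molecular identifiers, so intervals and limits from fragments cover counting error only. Spike-in RNA was added at lysis, but 0 spike-in rows are in the table, so levels are shares of a library and not amounts per embryo.

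Dividing the product of FPKM and gene length by the worth of 1 fragment in each library gave a whole number of fragments for 100% of values above 0 (tolerance 0.01 fragment), and so the depth of 871663 to 1363928 fragments on genes per library. Groups came from the labels. All 6 libraries were fitted without a block on log2(FPKM + 1) with limma 3.58.1 in R 4.3.3 (eBayes with a trend in the mean level, after lmFit), over the 16100 genes with at least 1 FPKM in at least 2 libraries, where the residual degrees of freedom were 3 and the prior ones 3.12. Benjamini-Hochberg adjustment of P-values was made over all of these genes. The pseudocount of 1 understates the changes of low genes. The authors tested their own counts with DESeq2, and no count model was the main test here because the deposited values are FPKM. The fit was tested on simulated data first. Alternatives were other pseudocounts, filters and scalings, other eBayes settings, a fit of the compared groups only, a replicate block, voom on recovered fragments and leaving out each library. Gene models and transcripts were GENCODE M21, and upstream windows were RefSeq.

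The members, their division by origin and the gene lists were chosen with earlier results of these data known. Named were all members, Pias4, and from each list up to 3 called genes with the largest change and at least 10 fragments in at least 2 libraries, plus the gene with the highest mean in non-injection, and genes named outside this rule are marked. Repeat elements were not analysed here. Python 3.11.15, pandas 2.3.3 and matplotlib 3.10.9 were used for summaries and plots.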

Additional observations from a re-analysis of the deposited data

How the results depend on the processing

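With 2 libraries per group the calls of the members were fragile. In PIASy-WT against non-injection, 0 members were called lower, which became 1 (Nr5a2) with log2(FPKM + 0.5), with a filter of at least 5 FPKM in at least 2 libraries, with only the 4 libraries compared and with the replicate block, and 2 (Nr5a2 and Klf5) with voom on recovered fragments. Leaving out 1 library gave 0 to 2, with Nr5a2 called without PIASy-Mut 1 and Nr5a2 and Tead4 without PIASy-Mut 2. Against PIASy-Mut, 0 became 1 (Nr5a2) with the 5 FPKM filter and with voom, and leaving out 1 library gave 0 to 1 (Tead4 without PIASy-Mut 2). No member was called higher under any alternative run. Of the members' log2 differences, 153 of 164 alternative values against non-injection and 161 of 164 against PIASy-Mut kept their sign and their side of the threshold, and 9 and 3 passed it. The sign turned on leaving out 1 library, without a call, for Sox2 (range −0.24 without non-injection 2 to 1.54) and Klf4 (−0.45 to 0.026 without PIASy-WT 1) against non-injection. In PIASy-Mut against non-injection 9 such values turned. The ranges were −0.63 to 0.18 for Nr5a2, −0.29 to 0.10 for Tfap2c, −1.08 to 0.56 for Tead4, −0.12 to 0.017 for Yap1, −0.55 to 0.017 for Klf5, −0.14 to 0.44 for Rarg and −0.055 to 0.70 for Pou5f1. PIASy-Mut 2 (Nr5a2, Tfap2c, Tead4, Klf5 and Pou5f1), non-injection 1 (Nr5a2) and non-injection 2 (Tfap2c, Yap1 and Rarg) were the libraries whose absence turned the sign. The cause was not tested. The replicate numbers did not pair the libraries (correlations of same-numbered deviations 0.0637, 0.00368 and 0.0851), and the block changed no other call of a member.

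Over all genes, calls in PIASy-WT against non-injection ran from 154 to 1941 lower and 16 to 867 higher over the alternatives that kept all libraries of both groups, beside 928 and 166. Against PIASy-Mut they ran from 0 to 1913 lower and 0 to 605 higher, beside 968 and 132, with 0 in the fit of the 4 libraries compared. Leaving out any PIASy-WT or non-injection library left 0 genes called in either comparison, and leaving out PIASy-Mut 1 left 0 called against PIASy-Mut, with the lone library assumed to vary like the other groups, so the calls of Klf16, Sp1, Cyp26a1, Id2 and Sox15 were lost there too. Quantile normalization moved the median of all genes against non-injection from 0.01 to 0.12, and that against PIASy-Mut from −0.03 to 0.11. Tead4, Sox2 and Rarg, at 0 to 19 fragments per library, are limited by depth.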
